A study of Mus musculus with 4 samples.

Results

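Neutrophils of the mouse lung were examined as 156 cells among the 9363 cells of a whole-lung single-cell RNA-seq experiment, 1.67% of all cells. They were chosen by their own transcripts: at least 1 UMI (unique molecular identifier, a tag that counts each captured transcript molecule a single time) of Csf3r, at least 10 summed UMIs of S100a8 and S100a9, and 0 UMIs of Csf1r, Cd3e, Cd79a and Cdh5. Csf3r encodes the receptor for granulocyte colony-stimulating factor, S100a8 and S100a9 encode the subunits of calprotectin, and the other 4 genes mark monocytes and macrophages, T cells, B cells and endothelial cells. Values of these 7 genes inside the gate therefore describe the choice and are not findings.

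Neutrophils are short-lived granulocytes that form in the bone marrow and are held in large numbers in the capillaries of the lung. During maturation they fill their granules in a fixed order: primary (azurophil) granule proteins such as myeloperoxidase at the promyelocyte stage, secondary (specific) granule proteins such as lactoferrin at the myelocyte stage, and tertiary (gelatinase) granule proteins later, after which the cell leaves the marrow carrying the chemokine receptor CXCR2. Mature cells sense microbes and damaged tissue and respond with IL-1 beta, chemokines and reactive oxygen.

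The cells came from digested whole lungs of WT mice, genotype ERG fl/fl, and of ERG CKO mice, genotype CDH5-CreER(T):ERG fl/fl, with 2 libraries in each group. Both groups carried the floxed alleles and received tamoxifen, as 5 injections of 0.5 mg daily, and the lungs were taken 90 days afterwards. The Cdh5 promoter drives the recombinase in endothelial cells, so that the neutrophils were not the targeted cell. The mice were of both sexes on a C57/BL6 background, and the age of those used here is not given in the sources used here. The study's methods give 2 mice in each group, so that p-values measure the spread between these few mice.

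The targeted gene gave no check of the labels. In cells with a Cdh5 UMI, Erg was at 86.4 and 75.5 CPM (counts scaled to a library total of 1000000 UMIs) in the WT libraries and at 92.4 and 73.9 CPM in those labelled ERG CKO, and the groups overlapped. A transcript that has lost a floxed exon can still be counted for its gene, and which part of Erg the counted reads came from was not examined, so the groups are named below as they were labelled. Gated neutrophils held 1 UMI of Erg in all. The 4 libraries held 1852 to 3097 cells each. Of 7 cell barcodes found in more than 1 library none belonged to a gated cell, and 1 gated cell was called a doublet.

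The gate kept 27 cells of WT replicate 1, 24 of WT replicate 2, 52 of ERG CKO replicate 1 and 53 of ERG CKO replicate 2. Of 779 cells with a Csf3r UMI, 260 passed the S100a8 and S100a9 step. The S100 sum of gated cells ran from 11 to 6103 UMIs. The lowest sums inside the gate were 11, 14, 14, 18 and 18, and the highest below the limit were 9, 6, 6, 5 and 5. All 7 cells with a sum of 10 to 19 carried a UMI of Cxcr2, and so did 5 of the 6 cells with a sum of 5 to 9. Among the 24 cells with a sum of 1 to 4 it was 1, while 20 of them carried Adgre1, the macrophage surface protein F4/80. Few cells therefore lay close to the limit.

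The step that required 0 UMIs of Csf1r took out many cells that carried neutrophil transcripts. It removed 10 cells of WT replicate 1, 25 of WT replicate 2, 26 of ERG CKO replicate 1 and 25 of ERG CKO replicate 2. Of these 86 cells, 84 had a UMI of Cxcr2 and 79 of Retnlg, a resistin-like protein of granulocytes. Among them 4 had a UMI of Ccr2 and 6 of Cx3cr1, receptors of monocytes, which 0 gated cells had. Adgre1 was found in 18.6% of the removed cells and 7.69% of gated cells, and C1qa in 4.65% and 1.28%. Ly6c2 ran the other way, at 6.98% and 15.4%. The cells kept are thus a portion of the cells with neutrophil transcripts, and the portion kept ran from 24 of 57 cells in WT replicate 2 to 27 of 38 in WT replicate 1.

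Gated cells held fewer UMIs than the rest. Their median UMI count lay between 2840 and 3533 per library, against 4633 to 4941 in all other cells, and their median share of mitochondrial UMIs between 0.343% and 0.504%, against 4.41% to 5.48%. The summed UMIs behind the comparisons below were 89239 and 90489 in the WT libraries and 204771 and 175767 in those labelled ERG CKO, so the WT values carry the larger counting error.

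Markers of neutrophils that the gate did not use were present in most gated cells. Cxcr2, the receptor for neutrophil-attracting chemokines, was found in 94.9% of gated cells and in 0.592% of 1352 T cells (cells with a Cd3e UMI), which serve here as the background of free RNA. The T cells were deeper, with a median of 6478 UMIs against 3334 in gated cells. For genes that T cells express themselves they are no such background. Il1r2, the decoy receptor for interleukin-1, was found in 95.5% and 0.666%. Hdc, the enzyme that makes histamine, was found in 98.1% and 1.85%. Mmp9 (gelatinase B) was found in 93.6%, Clec4d in 96.8%, Trem1 in 91.7% and Retnlg in 89.1% of gated cells, against at most 1.33% of T cells for these 4 genes. Ly6g, the antigen by which mouse neutrophils are usually sorted, was found in 19.2% and Cd177 in 11.5%, and both were rare in T cells, at 0.222% and 0.148%.

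Many defining markers of other cells were absent, while others were found in some of the gated cells. Ccr2, Cx3cr1 and Mrc1 of monocytes and macrophages had 0 UMIs, as had Flt3 and Xcr1 of dendritic cells, Cd79b and Ms4a1 of B cells, Ncr1, Klrb1c and Prf1 of NK cells, Prg2, Epx and Il5ra of eosinophils, and all 5 basophil and mast cell markers. Cd74 and H2-Aa of the dendritic list were found in 18.6% and 11.5% of gated cells, against 15.1% and 9.91% of T cells, and the list summed to 168, 33.2, 195 and 119 CPM in the order WT replicates 1 and 2 and ERG CKO replicates 1 and 2. Ighm of the B cell list was found in 21.2%, against 43.1% of T cells, and that list summed to 56.0, 188, 58.6 and 108 CPM. Of 8 monocyte and macrophage markers beside Csf1r, 5 had UMIs, Ly6c2 and Cd68 in 15.4% and 23.7% of cells, with sums of 258 and 453 CPM in the WT libraries and 381 and 176 CPM in those labelled ERG CKO. The 5 T cell markers beside Cd3e held 18 UMIs together, or 101 and 33.2 against 9.77 and 22.8 CPM. Platelet transcripts were uneven: all 4 markers of the list had UMIs, their summed level was 33.6 and 11.1 CPM in the WT libraries and 264 and 96.7 CPM in those labelled ERG CKO. Epithelial transcripts ran the other way, with 3 of 4 markers detected, Epcam at 0, and sums of 269 and 144 CPM against 122 and 34.1 CPM.

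**Figure D1:**
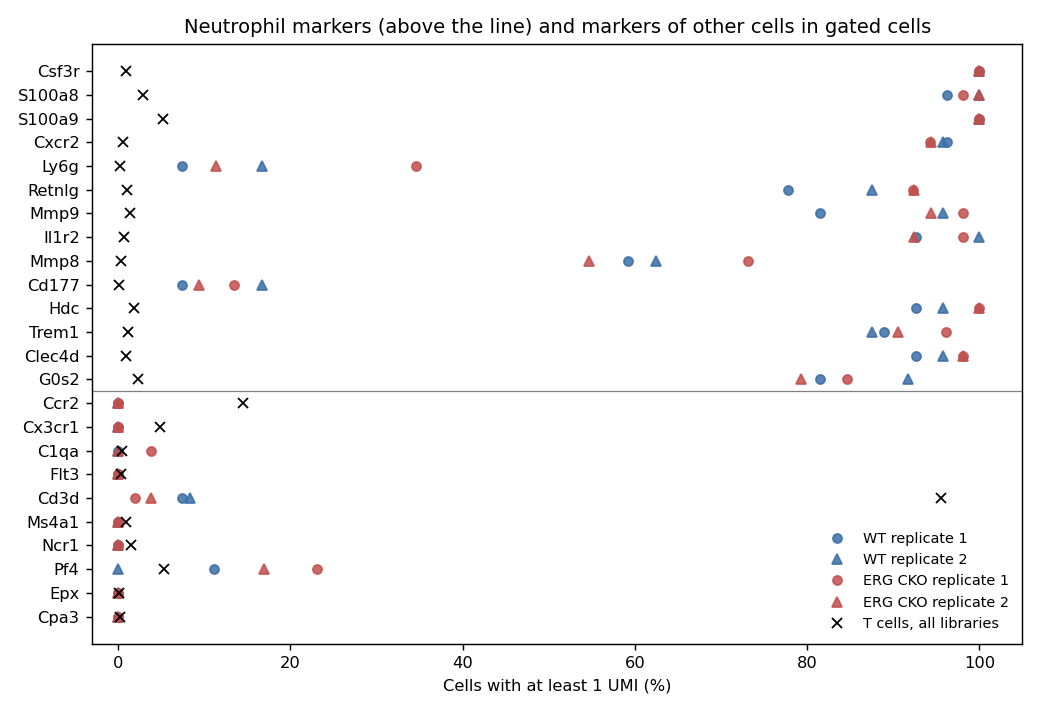
Share of gated cells (horizontal axis, percent) with at least 1 UMI of each marker, with a point for each library (blue WT, red ERG CKO, circles replicate 1, triangles replicate 2) and a cross for T cells of all libraries. Cxcr2 was found in 94.2% to 96.3% of gated cells of each library and Ly6g in 7.41% to 34.6%, while Ccr2, Cx3cr1, Flt3, Ms4a1, Ncr1, Epx and Cpa3 lay at 0.

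As a description of what the gate enriched, the genes highest over all other cells, after S100a9 and S100a8, were Retnlg, Mmp9, the stefin gene Stfa2l1, G0s2, Irg1, Il1r2, Slc7a11 and Lcn2. Retnlg stood at 11186 CPM in gated cells and 69.6 CPM in the rest, a log2 difference of 7.14 with 10 CPM added to each. Irg1, which makes the immunometabolite itaconate, stood at 1813 and 19.2 CPM. Slc7a11, the cystine importer, stood at 3491 and 49.9 CPM. Also among the 20 highest were Hdc, Mmp8, Il1b, Ptgs2, Clec4d, Arg2 and Hcar2.

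Transcripts of the early stages of maturation were absent or rare. Of the 8 members of the primary granule list, Mpo (myeloperoxidase), Elane (neutrophil elastase), Ctsg (cathepsin G) and Ms4a3 had 0 UMIs in 156 cells. This allows a share of up to 1.92% of cells with a UMI. Prtn3 (proteinase 3) had 2 UMIs, Ctsc 8 in 5.13% of cells and Serpinb1a 26 in 4.49%, 15 of them in ERG CKO replicate 1. The list's last member, Cebpe, is given below. Of 10 genes of dividing cells Mki67 had 2 UMIs, Top2a and Ccnb2 1 each, Birc5 and Cdk1 0, and Stmn1, Tuba1b, Tubb5 and Pcna between 4 and 24. Hmgb2, a chromatin protein on the same list, went the other way, with 640 UMIs in 92.3% of gated cells and 1142 CPM against 327 CPM in all other cells. Late granule and surface genes were broad, with Mmp8 in 62.8% of cells, Hp (haptoglobin) in 92.9% and Adam8 in 80.1%. Of the transcription factors, Cebpb was found in 100% and Spi1 (PU.1) in 92.9%, while Cebpe, the factor of granule synthesis, was found in 12.2% with 28 UMIs and Gfi1 in 0.641% with 1 UMI.

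The secondary granule genes Ltf (lactoferrin), Camp (cathelicidin) and Ngp (neutrophilic granule protein) had many UMIs, and these were concentrated in few cells. Other members of the same list were broad, with Lcn2 in 61.5% of gated cells, Wfdc21 in 64.7% and Anxa1 in 72.4%. Chil3, Cd177 and Itgb2l were found in 12.8%, 11.5% and 6.41%, and Fcnb had 0 UMIs. Ltf had 154, 239, 404 and 0 UMIs in WT replicates 1 and 2 and ERG CKO replicates 1 and 2, in that order. Camp had 276, 358, 960 and 0 UMIs, and Ngp had 370, 434, 1331 and 1. ERG CKO replicate 2 thus had next to none of these transcripts, although it gave the most gated cells. Few cells carried them: 10 in all had at least 3 summed UMIs and held 99.8% of the 4527 UMIs of the 3 genes, whereas 0 of 1352 T cells reached 3. In these granule-rich cells the sums were 731 and 66 in WT replicate 1, 569 and 462 in WT replicate 2, and 1614, 952, 83, 30, 7 and 5 in ERG CKO replicate 1.

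The promoters of these genes are shown because the 3 genes were found together in the same cells and because C/EBP factors, Cebpe among them, are known regulators of secondary granule genes. The 250 bases before each RefSeq gene start (build GRCm38.p6, the assembly that mm10 names) were searched on both strands for the letters TTNNGNAAT, in capitals, with 10 bases of context on each side. Ltf held a match 75 bases before its start (chr9:111019207-111019235, plus strand). Ngp held a match on the opposite strand, 139 bases before its start (chr9:110419659-110419687, plus strand shown). The window of Camp, which lies on the same chromosome, held none.
Ltf: ggcaggcctaTTGGGCAATagggtggggc
Ngp: gtcctggtttATTGCCCAAacctccttgc
Of 32851 RefSeq promoter windows of this length 10.2% hold the same letters, and a match is a description of the sequence, not evidence of binding.

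**Figure D2:**
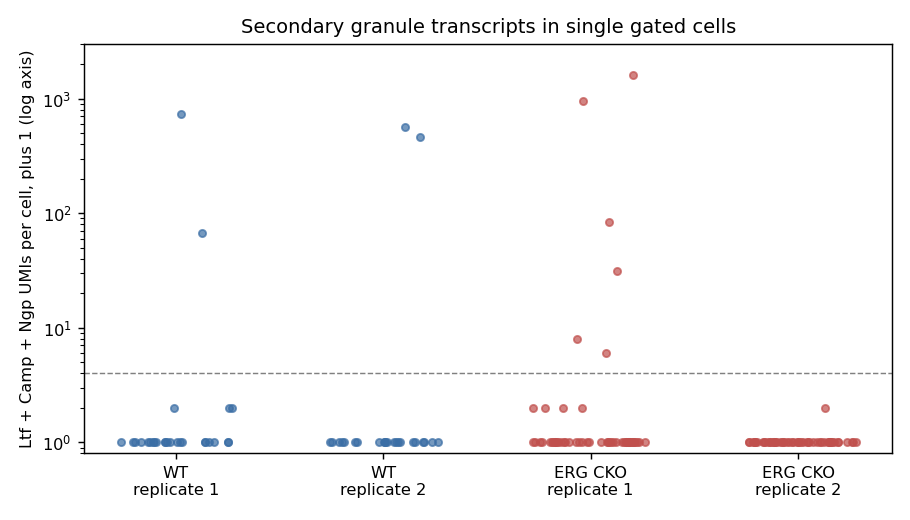
Summed UMIs of Ltf, Camp and Ngp in each gated cell (log axis, 1 added), with a point for each cell in the 4 libraries and a dashed line that separates cells with 3 or more UMIs. Points above the line number 2, 2, 6 and 0 from left to right, and the highest cell, in ERG CKO replicate 1, holds 1614 UMIs.

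The granule-rich cells made up 7.41% of gated cells in WT replicate 1 (2 of 27, 95% Wilson interval 2.06 to 23.4%), 8.33% in WT replicate 2 (2 of 24, 2.32 to 25.8%), 11.5% in ERG CKO replicate 1 (6 of 52, 5.40 to 23.0%) and 0% in ERG CKO replicate 2 (0 of 53, which allows up to 5.66%). Intervals and limits of this kind cover counting error only. The mean was 7.87% ± 0.655 (SD, n = 2) in WT and 5.77% ± 8.16 (SD, n = 2) in ERG CKO, a difference of -2.10 points that lay within the spread of the ERG CKO libraries (exact two-sided permutation p = 1). Without ERG CKO replicate 2 the difference was 3.67 points, so its sign rested on that library. With 2 libraries a group no exact test can reach a p below 0.333. A cut on a summed count marks a range of cells and not a type. Of the 10 cells, 8 had 10 or more summed UMIs.

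Granule-rich cells were compared with the others as a description, after each cell had been thinned to 1000 UMIs (10 and 144 cells, 2 shallower cells left out). Their median depth before thinning was 7467 UMIs, against 3259. Lcn2 (lipocalin 2) stood at 9800 CPM against 875, Chil3 (Ym1) at 1700 against 27.8, Cd177 at 800 against 13.9 and Ly6g at 1000 against 62.5. Cybb, the catalytic subunit of the NADPH oxidase, stood at 1600 against 69.4 and Lyz2 (lysozyme) at 12700 against 1542. Retnlg and Mmp8 also stood higher, at 24500 against 7854 and 3500 against 569. Lower in the granule-rich cells were Il1b, at 2300 against 20035 CPM, Cxcl2, at 2900 against 19875, Cxcr2, at 400 against 1340, and Ifitm1, at 100 against 1785. Kdm6b, Ifrd1, Amica1, Fyb and Emb, present in 41.0% to 61.8% of the other cells, had 0 UMIs in the 10. The 10 cells were not alike. The 5 with the highest sums held 0 to 7 UMIs of Il1b, 0 to 18 of Cxcl2 and 15 to 64 of Chil3. The 4 of ERG CKO replicate 1 with sums of 83, 30, 7 and 5 held 35, 15, 53 and 21 UMIs of Il1b. These 4 cells held 22, 12, 108 and 29 of Cxcl2, and at most 1 of Chil3. The cell of WT replicate 1 with a sum of 66 held 0 of Il1b, 20 of Cxcl2 and 0 of Chil3. All cells with 15 or more UMIs of Il1b thus came from ERG CKO replicate 1. None of the 10 cells held Mpo or Elane, 1 held Mki67, 1 held Top2a, and 1, the highest of WT replicate 1, was the cell called a doublet.

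Variation between the gated cells was read from the variance over the mean across the 154 thinned cells (Fano factor, with a median of 1.11 over 1214 genes). Beside S100a8 and S100a9 it was highest for Retnlg, at 18.8, Cxcl2, at 14.1, G0s2, at 9.56, Ccl4, at 8.76, and the ferritin gene Fth1, at 8.75, followed by Lcn2, at 7.62, Lyz2, at 7.23, and Il1b, at 6.43. Without the granule-rich cells it was 16.7 for Retnlg, 13.2 for Cxcl2, 9.88 for G0s2, 8.77 for Ccl4 and 8.78 for Fth1, but 2.48 for Lcn2 and 2.92 for Lyz2, so that the spread of the last pair lay largely in those cells. Retnlg ran from 0 UMIs per 1000 at the 10th percentile through a median of 3 to 27.4 at the 90th. Cxcl2 ran from 1.3 through 15 to 42.4. Il1b was the more even, from 6 through 17 to 34. Ccl4 had a median of 0 and a 90th percentile of 3, with a highest cell of 20.

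Some of the variable genes were correlated across cells. Over 154 cells, among 153 pairs of the 18 most variable genes that the gate did not use, Spearman's rho was highest for Ccrl2 and Nfkbia, at 0.52, then for Retnlg and Lyz2, at 0.50, and for the stefin genes Gm5483 and Stfa2l1, at 0.45. It was lowest for Retnlg and Junb, at -0.44, and for Retnlg and Il1b, at -0.40. Without the granule-rich cells these values were 0.50, 0.45, 0.46, -0.41 and -0.34. For Retnlg and Il1b the libraries ranged from -0.49 to -0.04. Cells share a library and a fixed total of 1000 UMIs, so that a gene with many UMIs lowers the others, and these values are given with no test. The stefin genes are near-identical copies between which reads may be divided, so their levels and their correlation are uncertain.

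Inflammatory transcripts were a general feature of the gate. Il1b, the precursor of interleukin-1 beta, was found in 96.8% of gated cells and 3.92% of T cells, and it stood at 16069 and 16013 CPM in the WT libraries and 14890 and 19139 CPM in those labelled ERG CKO. Cxcl2, a chemokine that draws further neutrophils through CXCR2, was found in 95.5% and stood at 17302, 15063, 19026 and 16943 CPM in the same order. For both genes the groups overlapped. A UMI of both was found in 146 of 156 cells, with 79.2% in WT replicate 2 as the lowest share. Ptgs2 (cyclooxygenase 2) was found in 76.3% of cells and Nlrp3, the inflammasome sensor, in 86.5%. Osm (oncostatin M) was found in 66.0%, and Tnf in 23.7% with 65 UMIs.

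The chemokines Ccl3 and Ccl4, which draw monocytes, were present in part of the cells: Ccl3 in 32.7%, Ccl4 in 32.1% and both in 14.1%. A UMI of either was found in 70.4% and 62.5% of cells in the WT libraries and in 42.3% and 43.4% in those labelled ERG CKO. In T cells the shares were 3.25% for Ccl3 and 8.21% for Ccl4. Il6 had 1 UMI, Il10 0 and Il1a 12, and Cxcl1 was held to 4.49% of cells with 90 UMIs. Other secreted factors were broader, with Il1rn in 51.9% of cells, Csf1 in 36.5%, Tgfb1 in 26.9% and Vegfa in 19.9%.

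Receptors by which neutrophils sense their surroundings were broad. Cd14, the lipopolysaccharide co-receptor, was found in 75.0% of cells, Clec4e in 81.4%, Tlr2 in 78 of 156 cells and Fcer1g, the signalling chain of Fc receptors, in 97.4%, while Tlr4 was found in 10.9%. Of the chemoattractant receptors, Ccr1 was found in 88.5% and C5ar1, the receptor for complement C5a, in 85.9%, with the formyl peptide receptors Fpr1 and Fpr2 in 38.5% and 44.2%. Cxcr4, the receptor that returns ageing neutrophils to the marrow, was found in 71.8% of gated cells but also in 61.8% of T cells. Of the oxidase subunits Cyba was found in 91.7% of gated cells, and in 82.7% of T cells, and Cybb in 16.7%. Padi4, the enzyme that citrullinates histones when extracellular traps form, was found in 35.3%. Mcl1, on which neutrophil survival depends, was found in 100%, and in 83.1% of T cells.

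The share of all cells that passed the gate was the first comparison between the groups. It was 1.19% in WT replicate 1 (95% Wilson interval 0.821 to 1.73%), 1.12% in WT replicate 2 (0.751 to 1.66%), 1.68% in ERG CKO replicate 1 (1.28 to 2.20%) and 2.86% in ERG CKO replicate 2 (2.19 to 3.72%). Both libraries labelled ERG CKO lay above both WT libraries. The denominators are all deposited cells, with up to 49.2% mitochondrial UMIs, which are more than the study kept after its own quality filter. Among cells of at most 10% mitochondrial UMIs the shares were 1.30%, 1.19%, 1.90% and 3.16%. The means were 1.15% ± 0.0540 and 2.27% ± 0.836 (SD, n = 2 each), which lay 1.12 points apart (exact permutation test, two-sided, p = 0.333, the lowest value that 2 against 2 libraries can give). The difference was 1.71 points without ERG CKO replicate 1 and 0.525 points without ERG CKO replicate 2. Where the 4 zero-UMI steps were dropped the shares were 1.68%, 2.65%, 2.68% and 4.43%, and those of WT replicate 2 and ERG CKO replicate 1 were close to each other. Of cells with a Ptprc UMI, the leukocyte antigen CD45, the gated cells made up 2.16% and 2.17% (WT) and 3.53% and 5.22% (ERG CKO), with means 2.21 points apart. Shares of a digested suspension depend on which cells were released, and more neutrophils cannot be told apart from fewer of the other cells. The share of T cells with an S100a8 or S100a9 UMI, a measure of free neutrophil RNA, was 2.37%, 7.72%, 10.4% and 11.8% in the same order. Its part in the gated share was not tested, and 3 of 1352 T cells reached the gate's limit of 10.

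**Figure D3:**
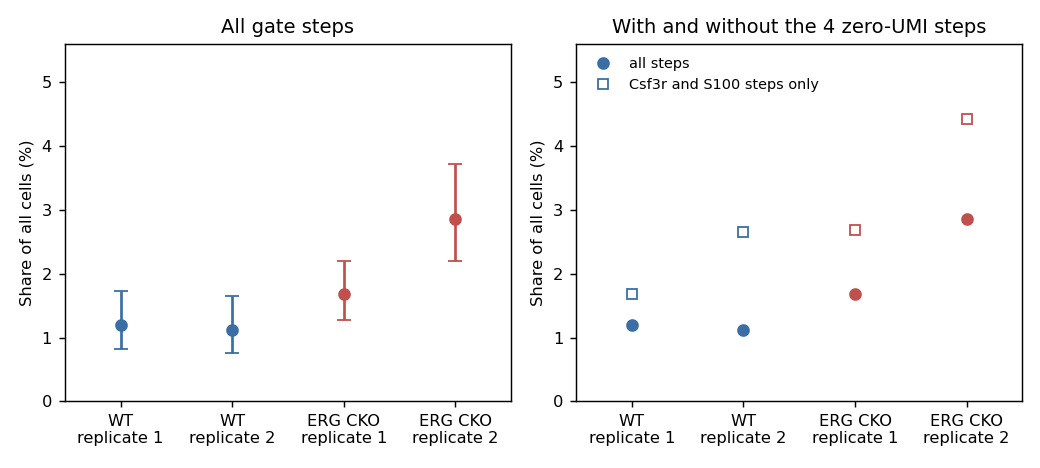
Gated cells as a share of all cells of each library (vertical axes, percent; blue WT, red ERG CKO). The left panel gives the full gate with 95% Wilson intervals, with WT at 1.19% and 1.12% and ERG CKO at 1.68% and 2.86%, and the right panel adds open squares for the Csf3r and S100 steps alone, where WT replicate 2 and ERG CKO replicate 1 lay at 2.65% and 2.68%.

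Gene by gene, no difference between WT and ERG CKO neutrophils passed the test. The UMIs of gated cells were summed per library and 1743 genes beside those of the gate were tested with edgeR's quasi-likelihood test. With p-values adjusted after Benjamini and Hochberg and a threshold of 0.05, edgeR called 0 genes, or 0% of those tested. The count was 17 without WT replicate 1 and 11 without ERG CKO replicate 2. An unadjusted p under 0.05 was found for 93 genes, 5.34% of those tested, with ERG CKO on the higher side for 38 and on the lower side for 55. DESeq2 called 1 gene, with 31 at an unadjusted p under 0.05. The ERG CKO libraries both lay above both WT libraries for 325 genes, 18.6% of those tested, and both below for 291, or 16.7%. The median log2 difference over all genes tested was -0.03 and the median standard error 0.41. The first is a signed median that normalisation draws toward 0, so it does not give the size of a typical gene's difference.

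The gene nearest to the threshold was Ifitm1, an interferon-induced membrane protein that restricts virus entry. It stood at 650 and 696 CPM in the WT libraries and at 1782 and 2407 CPM in those labelled ERG CKO, with 58, 63, 365 and 423 UMIs. Both ERG CKO values lay above both WT values. The edgeR log2 difference was 1.61 ± 0.26 (SE) with an adjusted p of 0.412, and DESeq2 gave an adjusted p of 0.00581. Over 16 alternatives the log2 difference ran from 1.17 to 1.82 and the adjusted p from 0.00581 to 0.994. Ifitm1 was called under 4 of them, namely with DESeq2, with its highest cell left out, and with either WT replicate 1 or ERG CKO replicate 2 left out.

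Jun, a subunit of the AP-1 transcription factor, differed the other way. It stood at 415 and 486 CPM in WT and at 58.6 and 148 CPM in ERG CKO, with 37, 44, 12 and 26 UMIs. The edgeR log2 difference was -2.17 ± 0.42 (SE) with an adjusted p of 0.538. Jun was called under 3 of 16 alternatives, those of Ifitm1 apart from DESeq2, and its log2 difference ran from -2.82 to -0.40 over all 16, the smallest without the 4 zero-UMI steps of the gate. Egr1, another immediate early factor, stood at 3440 and 2332 CPM in WT and at 1299 and 1365 CPM in ERG CKO, with an edgeR log2 difference of -1.13 ± 0.28 (SE) and an adjusted p of 0.806.

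The other 7 of the 10 genes with the smallest p also failed the edgeR test, with adjusted p-values of 0.538 to 0.806, and for each of the 10 the groups did not overlap. Trf (transferrin) stood at 101 and 111 CPM against 386 and 336 CPM. Gm5483, a stefin gene, stood at 224 and 243 CPM against 518 and 1144 CPM, and its highest cell held 73 of 349 UMIs. Ctla2a stood at 11.2 and 55.3 against 303 and 171 CPM, and Cyth1, which activates ARF GTPases, at 11.2 and 44.2 against 195 and 125 CPM. Lower in ERG CKO were Spp1 (osteopontin), at 112 and 199 against 29.3 and 22.8 CPM, Reep5, at 179 and 199 against 58.6 and 79.7 CPM, and Icam1, an adhesion molecule, at 202 and 133 against 39.1 and 68.3 CPM. Spp1 rested on 38 UMIs in 8.33% of the cells. Without the 4 zero-UMI steps of the gate the log2 difference of Spp1 moved from -2.54 to -0.42, that of Icam1 from -1.66 to -0.27 and that of Reep5 from -1.47 to -0.66. On the higher side Ctla2a moved from 2.80 to 1.54 and Cyth1 from 2.49 to 1.17. Both stood further up without WT replicate 2, at 4.36 and 3.80.

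**Figure D4:**
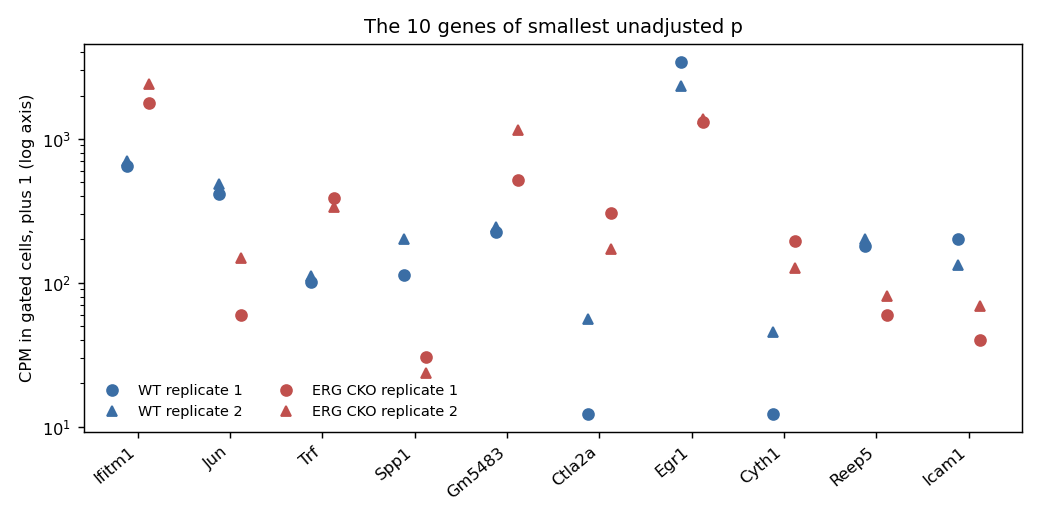
CPM in gated cells (log axis, 1 added) of the 10 genes with the smallest unadjusted edgeR p, with a point for each library (blue WT, red ERG CKO, circles replicate 1, triangles replicate 2). In each of the 10 genes the groups do not overlap, as they did not in 18.6% and 16.7% of all genes tested (ERG CKO above and below), and none passed the adjusted test.

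Genes of known neutrophil functions were read from the same fit, list by list. No member of any list was called by edgeR, against 0% of all genes, and at an unadjusted p under 0.05 the background was 5.34%. In what follows a gene is on the higher or lower side by the sign of its fitted log2 difference alone. Of all 1743 genes tested 831, or 47.7%, were on the higher side and 912 on the lower. Groups did not overlap for 18.6% of all genes tested (ERG CKO above) and 16.7% (ERG CKO below). The secondary granule list had 9 members tested, of which 8 had a lower and 1 a higher fitted level in ERG CKO, with a median log2 difference of -0.39. The median was 0.58 without ERG CKO replicate 2, the library that lacked granule-rich cells, and 0.31 with called doublets left out. Lcn2 stood at 2320 and 2906 CPM in WT and at 4009 and 1035 CPM in ERG CKO, so that the libraries labelled ERG CKO lay on either side of WT. Lyz2 stood at 4404, 4885, 5133 and 1274 CPM in the same order.

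Among mature neutrophil genes 12 of 16 had a higher fitted level in ERG CKO, with a median of 0.37, and 6 did not overlap (higher in ERG CKO). The shares over all genes tested were 47.7% and 18.6%. Without WT replicate 2 the median was 0.61, and without ERG CKO replicate 1 it was 0.24. Thinned to 1000 UMIs per cell the median was -0.004. Ccl6, a chemokine of myeloid cells, stood at 1322 and 1790 CPM in WT and 2671 and 3021 CPM in ERG CKO, with an edgeR log2 difference of 0.85 ± 0.27 (SE) and an adjusted p of 0.806. Stfa2l1 stood at 695 and 608 against 845 and 1479 CPM. Cxcr2 did not separate the groups, at 1087 and 1260 against 1148 and 1178 CPM, with a log2 difference of -0.03 ± 0.25 (SE). Of 8 tertiary granule genes 5 were on the higher side. Retnlg was one of them, at 7105 and 8167 against 15534 and 9746 CPM, and so was Adam8, at 448 and 553 against 943 and 802 CPM.

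Interferon-stimulated genes had a median log2 difference of 0.56 over 11 tested members, Ifitm1 among them. Of the 11, 10 were on the higher side and 7 did not overlap (higher in ERG CKO), against 47.7% and 18.6% of all genes tested. Under 16 alternatives the median stayed above 0, from 0.05 to 1.18. The lowest came without the 4 zero-UMI steps of the gate, with 11 of 19 members on the higher side, and without ERG CKO replicate 1 it was 0.17, with 7 of 11. Rsad2 (viperin) stood at 134 and 111 CPM in WT and 254 and 176 CPM in ERG CKO. Ifi27l2a stood at 325 and 309 against 1006 and 370 CPM. Isg15, the ubiquitin-like modifier, stood at 571 and 188 against 806 and 660 CPM. Below the filter of the test, Ifit1 had 0 and 0 UMIs in the WT libraries and 13 and 12 in the others, and Gbp2 had 1 and 0 against 30 and 9. Gbp2 was found in 14.1% of gated cells and 17.2% of T cells, which held more UMIs per cell. Whether T cells carried Gbp2 of their own was not tested, so they give no background for it. Ifit3b, below the filter too, had 15 and 1 UMIs against 13 and 6, and its groups overlapped. No member passed the edgeR test, and platelet transcripts, higher in the same libraries as given above, moved with these genes, a link that was not tested.

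Secreted cytokines and chemokines had a median of -0.47, with 8 of 13 members on the lower side, against 912 of 1743 genes tested. Of the 13, 6 did not overlap on the lower side, against 16.7% of all genes tested. Ccl6, given above with a log2 difference of 0.85, belongs to this list and did not overlap on the higher side. Without WT replicate 1 the median was -0.06, with 7 of 14 members on the lower side. Ccl3 stood at 515 and 1591 CPM in WT and 523 and 398 CPM in ERG CKO, and its groups overlapped. Ccl4 stood at 1782 and 995 against 962 and 802 CPM. Il1rn, the interleukin-1 receptor antagonist, stood at 549 and 685 against 430 and 324 CPM, and Vegfa at 157 and 221 against 103 and 91.0 CPM. Each had an edgeR adjusted p of 0.806. Without the filter on low counts the median of the list was 0.19, the same as that of all genes tested.

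NF-kB feedback genes had 10 of 12 members on the lower side with a median of -0.21 (0.01 without the filter on low counts). Without WT replicate 2 the median was -0.07, with 6 of 12 on the lower side. Immediate early genes had 12 of 14 on the lower side with a median of -0.23. Of all genes tested 912 of 1743 were on the lower side. Zfp36 (tristetraprolin), which destabilises cytokine mRNAs, belongs to both lists and stood at 3687 and 3802 CPM in WT and 2334 and 2867 CPM in ERG CKO. Fos stood at 6018 and 7073 against 6192 and 6651 CPM, and the groups overlapped. Junb, at 13335 and 12642 against 8839 and 13563 CPM, overlapped too. The immediate early median stayed below 0 under 16 alternatives, from -0.32 to -0.02.

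The remaining functions had medians between -0.25 and 0.26. Innate sensing receptors had 11 of 13 members on the higher side, against 47.7% of all genes tested, with a median of 0.16 (0.31 without ERG CKO replicate 2). Of the 13, 7 did not overlap on the higher side, against 18.6% of all genes, and 2 on the lower, against 16.7%. Fcgr3 was among the 7, at 336 and 320 CPM in WT and 537 and 455 CPM in ERG CKO. Glycolysis genes had 7 of 8 on the higher side with a median of 0.26, with Gapdh at 695 and 751 against 1255 and 1058 CPM. Cytokine receptors had a median of 0.22, NADPH oxidase subunits 0.16, eicosanoid and extracellular trap enzymes 0.13, adhesion molecules 0.10, survival genes -0.11, transcription factors -0.12, chemoattractant receptors -0.14 and the ageing list -0.25. Under 1 or 2 of the alternatives the medians of the eicosanoid, adhesion, survival, transcription factor, chemoattractant receptor and ageing lists had the opposite sign, while those of sensing receptors, glycolysis, cytokine receptors and oxidase subunits kept their sign under 16. Without ERG CKO replicate 1 the glycolysis median was 0.003, with 4 of 8 members on the higher side, and the oxidase median 0.04. The oxidase median was 0.01 when each gene was summed without its highest cell, with 3 of 6 on the higher side. Of the transcription factors Hif1a stood at 33.6 and 33.2 against 122 and 114 CPM on 3, 3, 25 and 20 UMIs.

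**Figure D5:**
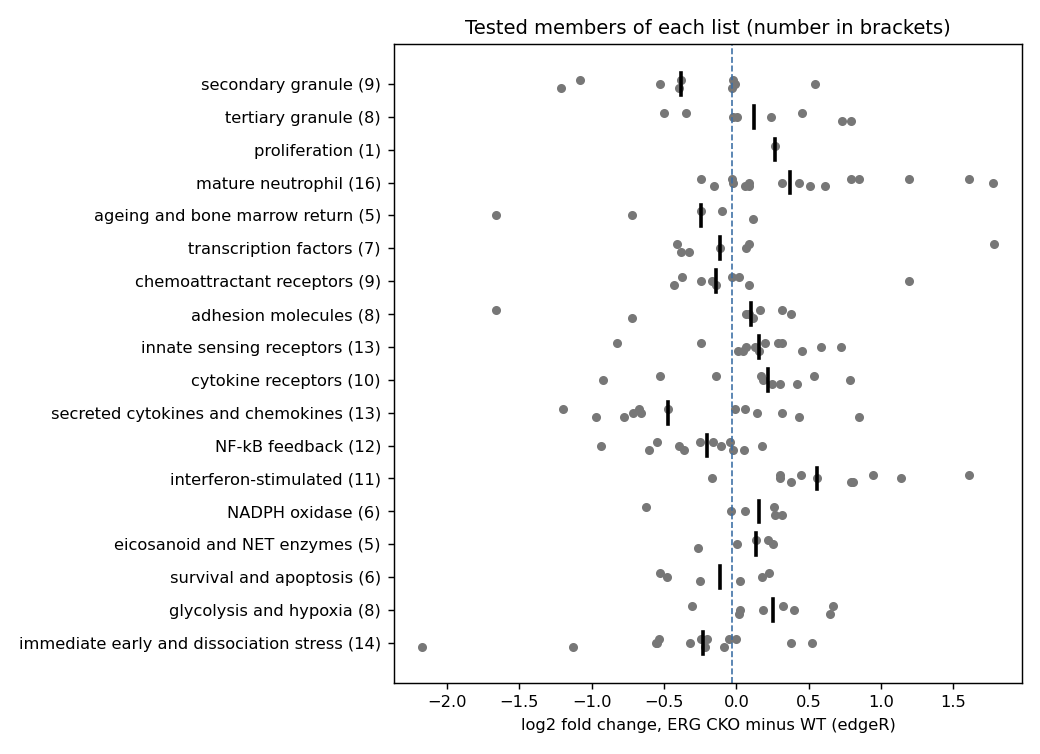
Fitted log2 difference, ERG CKO minus WT (horizontal axis, edgeR), with a grey point for each tested member of a list, a black bar at the list's median and a dashed line at the median of all genes tested (-0.03). The medians run from -0.47 (secreted cytokines and chemokines) to 0.56 (interferon-stimulated), and no point passed the adjusted test.

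Of 4 genes that the study named in immune cells, chosen by the study on these same samples and so no independent evidence, S100a9 belongs to the gate and is not read. Igf1 had 1 UMI in all gated cells. Mmp9 stood at 1188 and 1912 CPM in WT and 1748 and 1974 CPM in ERG CKO, and its groups overlapped. The values of Ccl6 are given above.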

How the data were processed

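Whole-lung cells of 2 WT and 2 ERG CKO mice were profiled on the 10x Genomics platform. The authors deposited raw UMI counts per gene and cell, made with Cell Ranger 3.1.0 on mm10 per the submitters' processing notes. The annotation release and the limits of the quality filter, after which the study kept fewer cells than the matrix holds, are not given in the sources used here. The matrix held 20076 rows, and 13 symbols on 2 rows were summed. Every cell had at least 500 UMIs and 300 genes. Neutrophils were gated as described above. Members and gene lists were chosen with earlier results of these data known. Libraries were told apart by the sample names in the cell names. UMIs of gated cells were summed per library (89239 to 204771) and tested with edgeR 4.0.16 in R 4.3.3 (TMM, filterByExpr, quasi-likelihood), and p-values were adjusted over all genes tested. A gene is called where its adjusted p is 0.05 or less. CPM in gated cells are scaled to 1000000 of the UMIs of those cells. The study compared groups cell by cell, which takes cells as replicates and was not done here. DESeq2 1.42.0, other filters and gates, thinning to 1000 UMIs and leaving out each library were alternatives. Leaving out the granule-rich cells was chosen after seeing the data. Scrublet in scanpy 1.11.5 called 0.619% of cells doublets, and they were kept. The edgeR script was tested on simulated data. Genes named are those of the gate and the markers, and list members of at least 20 UMIs. Members with fewer are named where described as absent or rare, beside Tlr4, with 17 UMIs. Also named are the 10 of smallest p, the 20 most enriched, the 20 most variable, and the 10 highest and lowest in granule-rich cells. Copies such as the stefins, Bcl2a1 genes, Ifit3 and Ifit3b are uncertain. Promoters are RefSeq's on GRCm38.p6. All 3 genes looked up were found among these promoters by symbol.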

Additional observations from a re-analysis of the deposited data

How the results depend on the processing

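The count of genes called by edgeR, 0, was 1 with DESeq2, 2 when each gene was summed without its highest cell, and 0 to 17 when a library was left out. The 17 came without WT replicate 1, 13 up and 4 down in ERG CKO, and 11 were called without ERG CKO replicate 2. Among list members the count was 1, 2 and 0 to 10 under the same settings. Where a library was left out the lone library of its group was taken to vary like the others. It was 0 under the other alternatives, the replicate block included. Replicate numbers did not pair the libraries: the deviations of same-numbered libraries correlated at -0.053 over 1746 genes, and with a replicate block 0 genes were called (84 at an unadjusted p under 0.05). The difference in gated share was 2.21 points of Ptprc cells and 0.525 to 1.71 points with a library left out. The difference in granule-rich share ran from -7.87 to 3.67 points with a library left out, 3.67 without ERG CKO replicate 2. Without the filter on low counts the median log2 difference of all genes was 0.19. The causes of these changes were not tested. Sparse counts in 51 WT cells limit what could be detected.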

Other observations

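Gsr, glutathione reductase, which regenerates reduced glutathione, set a single WT library apart. In gated neutrophils it had 132, 5, 161 and 161 UMIs in WT replicates 1 and 2 and ERG CKO replicates 1 and 2, or 1479, 55.3, 786 and 916 CPM. It was found in 100%, 16.7%, 90.4% and 94.3% of gated cells in that order. The 24 neutrophils of WT replicate 2 were thus low for it and those of the other 3 libraries high. In all other cells Gsr stood at 153, 51.2, 109 and 125 CPM, also lowest in WT replicate 2, and in T cells at 37.9, 21.5, 27.8 and 27.8 CPM. The edgeR log2 difference between the groups was 0.13 ± 0.87 (SE), with an adjusted p of 0.980. Without WT replicate 1 Gsr was among the 17 genes called.

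BC100530, another stefin gene, had 59 UMIs in 2 cells of ERG CKO replicate 2 and 0 in the other 3 libraries, and its highest cell held 52.5% of them.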
